A study of Mus musculus with 2 samples.

Results

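The genes described here are the aminoacyl-tRNA synthetases of the mouse and the proteins that hold several of them together. They were chosen by name: 39 listed symbols, of which all 39 were found among the 23238 gene symbols of the count files. By role they fall into 11 genes of the multisynthetase complex, 12 genes of cytosolic enzymes outside that complex and 16 genes of mitochondrial enzymes. The cells were bone marrow-derived dendritic cells, which present antigen to T cells and were grown here from the marrow of female C57BL/6 mice aged 7 weeks with 20 ng/ml of the cytokine GM-CSF, which was added again on day 3, and collected on day 6 as immature cells. One culture (UNE-C1) received 100 nM UNE-C1 for 24 h, and the other (Control) is labelled only as a control, with no word on what it received. Both groups share the strain, the sex, the age and the GM-CSF. Each group is 1 library, and the sources used here do not say how many mice stand behind each. Every difference below is therefore a difference between 2 libraries without a replicate check, no test was possible, and each interval covers counting error only.

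An aminoacyl-tRNA synthetase joins one kind of amino acid to its transfer RNA, the step that gives the genetic code its meaning during protein synthesis. Mammalian cells keep separate sets of these enzymes for the cytosol and for mitochondria, nearly all made from nuclear genes of their own, although Gars and Kars each serve both places. Several cytosolic enzymes sit in a multisynthetase complex built on the scaffold proteins encoded by Aimp1, Aimp2 and Eef1e1. The enzymes form a pair of unrelated structural families, class I and class II. Some have further roles outside translation, and the agent itself belongs here: UNE-C1 is a part of the cysteine enzyme, the product of Cars, and is known to bind TLR2 and TLR6, receptors of innate immunity. Cells short of charged tRNA are known to activate the kinase GCN2 and the transcription factor ATF4, which raises several cytosolic synthetase genes, and human WARS is a known target of interferon gamma.

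Most of the 39 genes stood close to their control level. Levels are given as CPM, reads scaled to library size after TMM, and differences as log2((CPM + 1)/(CPM + 1)), UNE-C1 over Control; counts of genes past 2-fold or 1.5-fold use this log2 scale, while a fold value given for 1 gene is its plain CPM ratio, which lies further from 1 for genes with few reads. A gene was compared when it had 50 or more reads in at least 1 library, the floor that 35 of the 39 passed. The other 4, Aars2, Mars2, Nars2 and Sars2, are all mitochondrial. Of the 35, 2 (Mars and Pars2) had a level in the UNE-C1 library at least 2-fold higher, where 9.31% of all 10469 genes past the floor were, and 5 were at least 2-fold lower (Eef1e1, Vars, Iars, Wars2 and Rars2), where 9.42% of all genes were. Of these 7 genes 4 reached 50 reads only in the library in which they were higher, Pars2 in the UNE-C1 library and Eef1e1, Wars2 and Rars2 in the Control library, so that passing the floor itself favoured a difference. At 1.5-fold, Cars joined the higher ones, which made 3 (18.2% of all genes), and Farsb, Tars2, Tars and Yars2 joined the lower ones, which made 9 (19.3% of all genes). The remaining 23 lay within 1.5-fold. The median over the 35 was -0.17, against -0.0047 for all genes past the floor. Scaling by total counts moved the median of all genes to -0.33, so differences are read relative to it; under that scaling 7 of the 13 genes above 0 (Rars, Kars, Aimp2, Gars, Nars, Ears2 and Fars2) fell below 0, and the 22 below 0 stayed there. In whole-cell RNA of this kind, fewer cells of a type and less RNA per cell cannot be told apart.

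**Figure D1:**
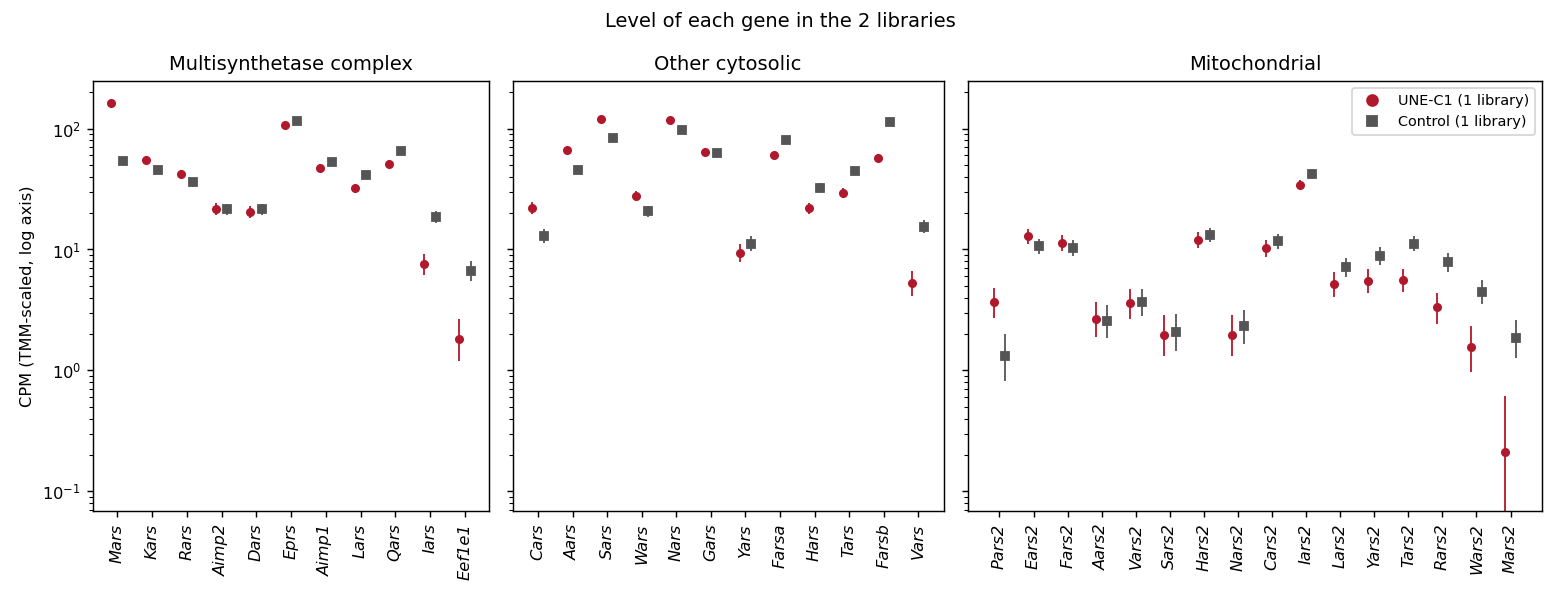
CPM on a log axis of each gene in the UNE-C1 library (red circles) and the Control library (grey squares), by group, with exact Poisson 95% intervals that cover counting error only. Most pairs of symbols nearly coincide; Mars stands apart upward with 163 CPM against 53.7 CPM, and Iars, Eef1e1, Vars, Rars2, Wars2 and Mars2 stand apart downward.

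The multisynthetase complex joins enzymes for 9 amino acids, since Eprs encodes a fused enzyme for glutamic acid and proline, to its 3 scaffold proteins. Of its 11 members 1 was at least 2-fold higher (9.31% of all genes), 2 were at least 2-fold lower (9.42% of all genes), and the other 8 lay within 1.5-fold, with a median log2 fold change of -0.10. Both counts lie within about 1 gene of those shares. Mars, which encodes methionyl-tRNA synthetase, the enzyme that charges initiator tRNA, had 2319 reads in the UNE-C1 library and 898 in the Control library. At 163 and 53.7 CPM this was a 3.05-fold higher level (interval 2.82 to 3.29), the largest upward difference of the 39 genes on the log2(CPM + 1) scale (1.59). The Mars value needs the gene next to it, which is described further on.

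The lowest members of the complex were a scaffold and an enzyme. Eef1e1, also known as AIMP3, had 26 reads in the UNE-C1 library and 111 in the Control library, a 3.62-fold lower level (interval 2.34 to 5.78), and passed the floor only through the Control library; its position is chr13:38644207-38659058, minus strand. Iars, the isoleucine enzyme, had 107 and 310 reads, 2.46-fold lower (interval 1.97 to 3.09); its position is chr13:49682100-49734267, plus strand. Beside Eef1e1, the other scaffolds hardly differed. Aimp1, whose product is also the precursor of a secreted cytokine, had 672 reads in the UNE-C1 library and 893 in the Control library (log2 fold change -0.17), and Aimp2 had 308 and 359 reads (0.02). The 3 scaffold genes thus did not change alike, from -1.43 for Eef1e1 to 0.02 for Aimp2.

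The other enzymes of the complex were carried by more reads and lay closer to 1. Eprs had 1516 reads in the UNE-C1 library and 1923 in the Control library, a log2 fold change of -0.10. Kars, the lysine enzyme, had 778 and 762 reads (0.26), and Rars, the arginine enzyme, had 596 and 600 (0.22). These nearly equal read numbers give positive values because the TMM-scaled size of the UNE-C1 library is the smaller one. Dars, for aspartic acid, had 290 and 359 reads (-0.07). Lars, the leucine enzyme that is also known as a leucine sensor for the growth kinase mTORC1, had 454 and 685 reads (-0.35). Qars, for glutamine, had 723 and 1095 reads (-0.35). Summed over the 11 genes, the complex had 549 CPM in the UNE-C1 library and 478 CPM in the Control library, a ratio of 1.15 (interval 1.11 to 1.19). That excess came from 1 gene: without Mars the sums were 386 and 424 CPM, a ratio of 0.909 (interval 0.878 to 0.942), and with scaling by total counts the ratio over all 11 was 0.906.

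Among the 12 genes of cytosolic enzymes outside the complex, 1 was at least 1.5-fold higher (18.2% of all genes), 3 were at least 1.5-fold lower (19.3% of all genes) and 8 lay within 1.5-fold, with a median of -0.09. Cars, the gene of the enzyme that UNE-C1 is taken from, had the highest value of the group. It had 311 reads in the UNE-C1 library and 218 in the Control library, 21.9 and 13.0 CPM, a 1.68-fold higher level (interval 1.41 to 2.01; log2 fold change 0.71, or 0.39 with total counts). Cars lies on chromosome 7, from 143557230 to 143600090 on the minus strand of GRCm38. UNE-C1 itself is a protein and gives no reads.

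Vars, the valine enzyme, was the lowest of the group. It had 75 reads in the UNE-C1 library and 258 in the Control library, a 2.92-fold lower level (interval 2.25 to 3.82); its position is chr17:35000987-35016322, plus strand. Farsb, the beta subunit of the phenylalanine enzyme, had 816 and 1898 reads, 1.97-fold lower (interval 1.82 to 2.14), just short of the 2-fold limit at -0.97. Its partner subunit Farsa, which forms the same enzyme in equal number, had 854 and 1337 reads, a smaller difference of -0.40. Tars, the threonine enzyme, had 414 and 749 reads, 1.53-fold lower (interval 1.36 to 1.73).

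The remaining 8 lay on both sides of 0. Aars, for alanine, had 941 reads in the UNE-C1 library and 756 in the Control library (log2 fold change 0.54), and Sars, for serine, had 1692 and 1409 (0.50). Nars, for asparagine, had 1659 and 1622 reads (0.27), and Gars, for glycine, had 914 and 1044 (0.05). On the lower side, Hars, for histidine, had 310 and 543 reads (-0.55), and Yars, for tyrosine, had 133 and 187 (-0.23). Wars, the tryptophan enzyme, had 394 reads in the UNE-C1 library and 346 in the Control library, 1.34-fold higher (interval 1.16 to 1.56; log2 fold change 0.41, or 0.08 with total counts). In the same libraries all 8 measured genes of a list of 9 interferon gamma targets were at least 2-fold higher (9.31% of all genes were), from 1.42 for Irf1 to 5.49 for Cxcl9, with a median of 2.94. Cxcl9 passed the floor only through the UNE-C1 library, in which it was higher. Cxcl10, Gbp2 and Gbp3 had 4.95, 3.52 and 3.41. Ido1, the interferon-induced enzyme that breaks tryptophan down, had only 5 reads in the UNE-C1 library and 4 in the Control library. The value of Wars was below each of the 8 measured interferon targets, and a link of Wars to interferon was not tested.

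**Figure D2:**
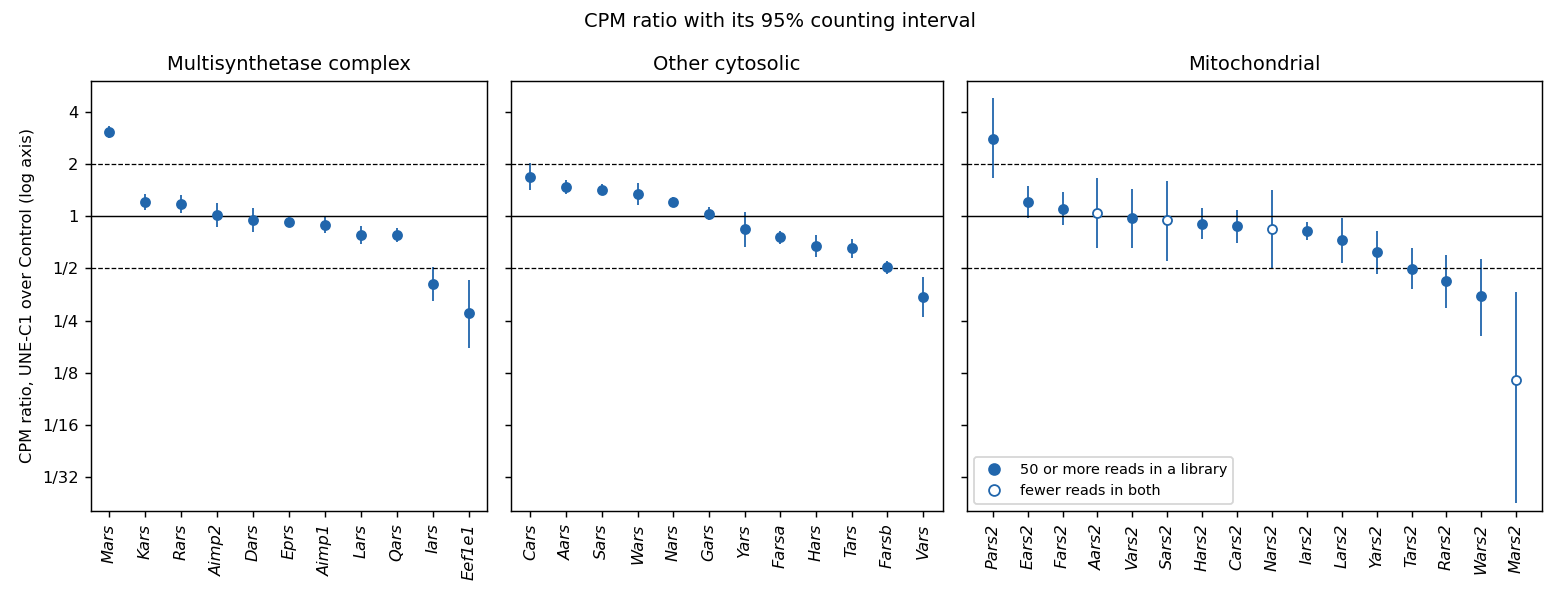
CPM ratio, UNE-C1 over Control, of each gene on a log axis with its exact conditional binomial 95% interval, by group; filled circles passed the floor of 50 reads and dashed lines mark 2-fold. Mars at 3.05 and Pars2 at 2.79 lie above the upper line, and the widest interval is that of Mars2, which rests on 3 and 31 reads.

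Mitochondrial enzymes were measured on fewer reads, a median of 62.5 per gene in the UNE-C1 library and 125 in the Control library, against 596 and 749 for the cytosolic genes. Of the 12 that passed the floor, 1 was higher by at least 2-fold (9.31% of all genes) and 2 were lower by that much (9.42% of all genes), and all 3 of these passed the floor through 1 library only. On the lower side of 0 stood 9 of the 12, where 50.4% of all genes past the floor were, and their median was -0.23. Summed over all 16, the reads gave 116 CPM in the UNE-C1 library and 141 CPM in the Control library, a ratio of 0.821 (interval 0.770 to 0.874). Without the members that share exon bases with a counted gene, a setting chosen after seeing the data, that ratio was 0.660 and the median -0.60. This left out Iars2, the mitochondrial gene with the most reads, and kept the 3 genes past 2-fold.

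The lower mitochondrial genes were those for tryptophan, arginine, threonine and tyrosine. Wars2 had 22 reads in the UNE-C1 library and 75 in the Control library, 2.89-fold lower (interval 1.78 to 4.88). Rars2 had 47 and 131 reads, 2.36-fold lower (interval 1.68 to 3.37). Both passed the floor only through the Control library, in which they were higher. Tars2 had 79 and 187 reads, 2.01-fold lower by the plain ratio (interval 1.53 to 2.64) but -0.89 on the log2(CPM + 1) scale. Yars2 had 78 and 148 reads, 1.61-fold lower (interval 1.21 to 2.14). Mars2, the methionine enzyme, had 3 reads in the UNE-C1 library and 31 in the Control library, a plain ratio of 0.114 (interval 0.0223 to 0.366), and did not reach the floor.

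Pars2, the mitochondrial proline enzyme, went the other way. It had 52 reads in the UNE-C1 library and 22 in the Control library, 2.79-fold higher (interval 1.66 to 4.82), which is a log2 fold change of 1.01 at the very edge of the 2-fold limit and 0.46 with a pseudocount of 5. It passed the floor only through the library in which it was higher. Cars2, the mitochondrial counterpart of Cars, had 145 and 196 reads (ratio 0.873, interval 0.699 to 1.09), so that no difference was detectable at this depth. The same holds for Ears2 with 182 and 178 reads, Fars2 with 161 and 172, Hars2 with 170 and 222, and Vars2 with 51 and 62. Iars2 had 487 reads in the UNE-C1 library and 703 in the Control library (-0.28), and Lars2 had 73 and 119 (-0.40). Of those under the floor, Aars2 had 38 and 43 reads, Nars2 28 and 39, and Sars2 28 and 35.

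For 13 amino acids both a cytosolic and a mitochondrial gene are among the 39, and in 9 of these pairs both passed the floor. In 6 of the 9 the cytosolic gene had the higher log2 fold change, and in 3 the signs were opposite. The cysteine pair was one of these, with 0.71 for Cars and -0.18 for Cars2, and the widest gap was that of tryptophan, with 0.41 for Wars and -1.10 for Wars2. Arginine also had opposite signs, with 0.22 for Rars and -1.03 for Rars2. With total counts Rars fell to -0.11, so that both arginine genes lay below 0. Cysteine and tryptophan kept opposite signs under that scaling, but Wars fell to 0.08. Both Wars2 and Rars2 passed the floor only through the Control library, in which they were higher. In valine and isoleucine the cytosolic gene was the lower one: Vars stood at -1.38 beside -0.03 for Vars2, and Iars at -1.19 beside -0.28 for Iars2. In the other pairs both genes lay below 0. Leucine was the closest, with -0.35 for Lars and -0.40 for Lars2, followed by threonine with -0.60 for Tars and -0.89 for Tars2, tyrosine with -0.23 for Yars and -0.60 for Yars2, and histidine with -0.55 for Hars and -0.14 for Hars2. By structural family, 4 of 17 class I genes past the floor were lower by 2-fold or more (9.42% of all genes) and 1 was higher (9.31% of all genes), with a median of -0.28. Of those 4, Wars2 and Rars2 passed the floor only through the Control library. None of 14 class II genes was 2-fold lower and 1, Pars2, was higher (median -0.01). At 1.5-fold the classes differed less: 5 class I and 3 class II genes were lower (19.3% of all genes), and 2 and 1 were higher (18.2% of all genes). Eprs, which holds an enzyme of each class, was left out of both, and this split was not tested.

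Several of these genes share exon bases with a neighbour, and the sources used here name neither the counting tool nor its strand setting, so reads on shared bases cannot be assigned. In the GENCODE M21 annotation (GRCm38) 12 of the 39 genes share exon bases with a gene counted in the files, and 7 of the 12 meet it tail to tail, the arrangement in which both 3' ends lie on the same bases. Libraries of this kind read the 3' end of messenger RNA. The member with the highest value is Mars, on chromosome 10 from 127296221 to 127311786 on the minus strand. Its end overlaps that of Ddit3, from 127290774 to 127296288 on the plus strand, by 68 bases. Ddit3 encodes CHOP, a transcription factor of the stress response. Its 2958 reads in the UNE-C1 library and 933 in the Control library were a 3.74-fold higher level (interval 3.47 to 4.03), beside the 2319 and 898 reads of Mars. Mars and Ddit3 were thus both higher, with close reads in the Control library and fewer for Mars in the UNE-C1 library. Their log2 fold changes differed by 0.30. Whether reads of Ddit3 were counted for Mars was not tested.

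The other 6 members with a tail-to-tail neighbour varied in how close they were to it in reads and in log2 fold change. Yars and C77080 share 30 bases in GENCODE, but their gene overlap is 0 bases in the RefSeq table. They had 133 and 131 reads in the UNE-C1 library and 187 and 182 in the Control library, differences of 2 and 5 reads. Iars2 and Rab3gap2 share 2034 bases in GENCODE, with a gene overlap of 115 bases in the RefSeq table. They had 487 and 456 reads in the UNE-C1 library and 703 and 633 in the Control library. Aimp2 and Eif2ak1, the gene of the heme-regulated kinase of the stress response, had log2 fold changes of 0.02 and 0.09. Their reads were less close, 308 and 751 in the UNE-C1 library and 359 and 830 in the Control library. Cars2 and its neighbour Carkd had opposite signs, at -0.18 and 0.20. Sgpp2, beside Farsb, had 9 and 29 reads beside the 816 and 1898 of Farsb. Their log2 fold changes were -0.74 and -0.97. Nrn1, beside Fars2, had 8 and 3 reads beside the 161 and 172 of Fars2. Sgpp2 and Nrn1 were both under the floor. In the RefSeq table the gene overlap was 14 bases for Aimp2 and Eif2ak1 and 2332 for Farsb and Sgpp2. It was 0 for Cars2 with Carkd and for Fars2 with Nrn1. Across all 510 such tail-to-tail pairs in the files with both genes past the floor, the log2 fold changes of the partners had a Pearson r of 0.44 and a Spearman rho of 0.51 and differed by a median of 0.20, while across 292 head-to-head pairs these values were 0.21, 0.24 and 0.50. These are descriptions over gene pairs within the same 2 libraries. Among head-to-head neighbours, Hars and Hars2, which start on the same 195 bases in opposite directions in GENCODE, had -0.55 and -0.14, and Ears2 and Ubfd1 both had 0.25. In the RefSeq table these gene overlaps were 4 and 0 bases. On the same strand, Aars contains Exosc6, a subunit of the RNA exosome, in GENCODE but not in the RefSeq table, and the pair went apart, with 0.54 for Aars and -1.22 for Exosc6. Cars, Vars, Iars, Eef1e1, Pars2, Rars2, Wars2, Tars and Tars2 share no exon base with another gene counted in the files.

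**Figure D3:**
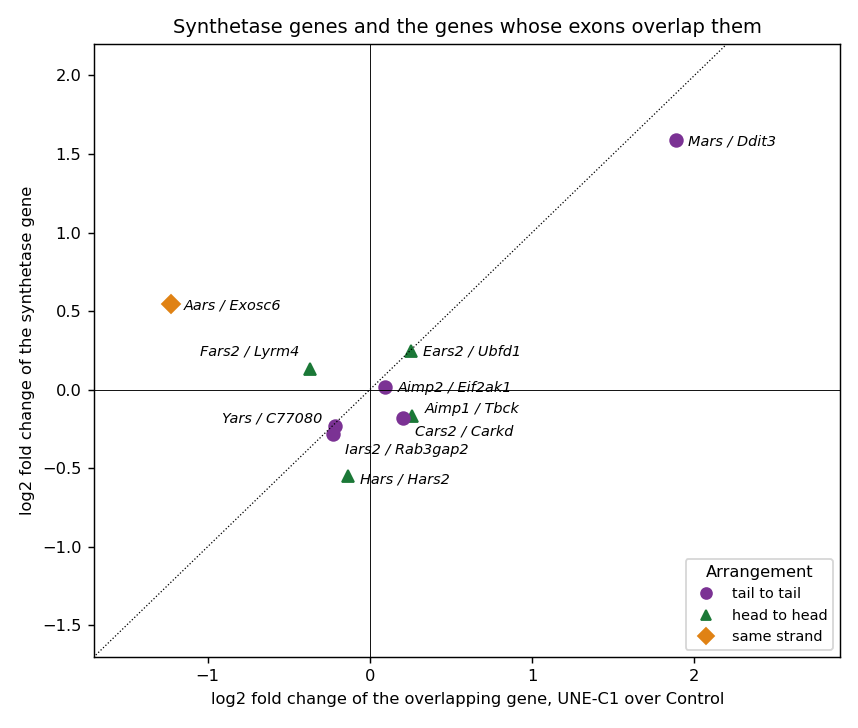
Log2 fold change of synthetase genes (vertical) against that of the gene whose exons overlap them (horizontal), both UNE-C1 over Control, for partners past the floor; the dotted line marks equal values. Mars and Ddit3 stand alone at the upper right with 1.59 and 1.88, while Aars and Exosc6 lie far from the line.

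Because ATF4 is known to raise cytosolic synthetase genes, the promoters were searched for the core of the element it binds with C/EBP partners, TGATGNAA, on either strand (TTNCATCA on the other). Promoter sequences, 250 bases before to 50 bases after the transcription start in RefSeq (GRCm38.p6), were matched for 30 of the 39 genes. No promoter was matched for Lars, Rars, Cars, Hars, Nars, Vars, Wars, Hars2 and Pars2. Of these, Lars, Hars, Nars and Hars2 lie on the same chromosome, which holds no other gene of the 39. No promoter of that chromosome thus entered the counts of matched promoters. Whether the share of all promoters has the same limit was not tested. The unmatched genes were not searched, so whether they hold the core was not tested. The core was present in 5 of 16 matched cytosolic promoters and in 0 of 14 matched mitochondrial ones, and in 3.97% of all 32851 promoters. The 5 promoters are shown because they carry the same element while their genes differ in value; capitals mark each match. Iars (chr13:49681880-49682179, plus strand) had a log2 fold change of -1.19, Aars (chr8:111033592-111033891, plus strand) 0.54, Gars (chr6:55037751-55038050, plus strand) 0.05, Tars (chr15:11399609-11399908, minus strand) -0.60 and Yars (chr4:129189653-129189952, plus strand) -0.23.
Iars: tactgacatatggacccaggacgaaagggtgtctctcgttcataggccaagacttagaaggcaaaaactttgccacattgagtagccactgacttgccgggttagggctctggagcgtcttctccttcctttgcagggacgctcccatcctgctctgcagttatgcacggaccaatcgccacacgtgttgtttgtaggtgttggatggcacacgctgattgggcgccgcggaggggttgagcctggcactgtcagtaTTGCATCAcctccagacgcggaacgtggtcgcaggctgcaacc
Aars: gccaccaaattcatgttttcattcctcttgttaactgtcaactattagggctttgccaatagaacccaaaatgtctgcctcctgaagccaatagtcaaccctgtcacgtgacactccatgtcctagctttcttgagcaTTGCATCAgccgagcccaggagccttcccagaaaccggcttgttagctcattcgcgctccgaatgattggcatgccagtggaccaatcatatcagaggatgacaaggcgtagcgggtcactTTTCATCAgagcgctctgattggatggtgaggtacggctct
Gars: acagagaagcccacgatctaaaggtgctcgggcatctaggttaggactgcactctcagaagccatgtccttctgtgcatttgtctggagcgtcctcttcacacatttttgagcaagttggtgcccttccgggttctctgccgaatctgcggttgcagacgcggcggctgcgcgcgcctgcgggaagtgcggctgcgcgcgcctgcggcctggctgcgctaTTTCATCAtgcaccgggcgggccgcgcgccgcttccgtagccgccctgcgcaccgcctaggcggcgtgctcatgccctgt
Tars: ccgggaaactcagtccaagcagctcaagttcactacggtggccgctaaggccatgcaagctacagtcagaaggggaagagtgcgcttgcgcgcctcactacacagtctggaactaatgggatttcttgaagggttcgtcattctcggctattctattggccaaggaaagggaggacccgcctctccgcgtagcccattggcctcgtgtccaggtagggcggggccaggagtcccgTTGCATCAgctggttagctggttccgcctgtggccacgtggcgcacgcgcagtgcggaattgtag
Yars: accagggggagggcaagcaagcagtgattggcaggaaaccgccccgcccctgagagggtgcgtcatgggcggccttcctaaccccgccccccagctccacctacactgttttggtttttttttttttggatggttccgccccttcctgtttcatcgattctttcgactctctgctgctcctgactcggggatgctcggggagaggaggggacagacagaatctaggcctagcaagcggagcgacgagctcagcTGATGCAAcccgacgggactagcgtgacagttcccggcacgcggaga

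Counted from the start site as base 0, the match began at base 7 in Iars, at bases -112 and 9 in Aars, at -30 in Gars, at -15 in Tars and at 3 in Yars. In Iars, Tars and Aars one match read TTGCATCA, and Yars held its reverse complement TGATGCAA. Genes with the element thus ran from the lowest enzyme of the complex to one of the higher cytosolic enzymes. A further 2 motifs were searched on both strands. The E-box CACGTG was found in 4 of the 16 cytosolic promoters (Iars, Aars, Farsb and Tars) and in 1 of the 14 mitochondrial ones (Ears2), with 7.15% of all promoters. The STAT motif TTCNNNGAA was found in Kars, Eef1e1, Aars and Nars2 (8.30% of all promoters). No motif contains another. Such matches are descriptions of letters in a window, not binding sites.

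Genes of the stress response that ends in ATF4 were more often higher than lower. Of 17 past the floor on a list of 21, 7 were higher by at least 2-fold and 2 lower by as much (9.31% and 9.42% of all genes), with a median of 0.68. At 1.5-fold 10 were higher and 3 lower (18.2% and 19.3% of all genes). Ddit3, whose end overlaps that of Mars, is one of the 7. Atf4 itself had 7212 reads in the UNE-C1 library and 3738 in the Control library, 2.28-fold higher (interval 2.19 to 2.37). Trib3, a pseudokinase induced by ATF4, had 295 and 12 reads (log2 fold change 3.67), and the stress gene Nupr1 had 651 and 193 (1.90). Trib3 passed the floor only through the UNE-C1 library. Atf3 and Atf5, both ATF4 targets, stood at 1.44 and 1.03. Against these, 2 ATF4 targets of amino acid synthesis were lower: Psat1, of serine synthesis, had 90 and 472 reads (-1.99), and Shmt2, the mitochondrial serine hydroxymethyltransferase, had 66 and 208 (-1.25). Asns, asparagine synthetase, had 110 and 88 reads (0.48). Eif2ak4, which encodes the uncharged-tRNA sensor GCN2, had 257 and 348 reads (-0.19). The 5 synthetase genes with the element, from -1.19 to 0.54, lay below Atf4 at 1.18, and an effect of ATF4 on them was not tested.

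After charging, elongation factors carry the aminoacyl-tRNA to the ribosome. Of 6 genes of these factors and their exchange factors, 2 were at least 2-fold lower and 5 at least 1.5-fold lower (9.42% and 19.3% of all genes), with a median of -0.91. Eef1a1, which carries charged tRNA in the cytosol, had 6007 reads in the UNE-C1 library and 18608 in the Control library, 2.63-fold lower (interval 2.55 to 2.70). Its exchange factor subunits Eef1b2, Eef1d and Eef1g had log2 fold changes of -0.99, -1.10 and -0.84. Valyl-tRNA synthetase is known to bind these exchange subunits, and its gene Vars stood at -1.38. Tufm, the mitochondrial carrier, was the one within 1.5-fold, with 118 reads in the UNE-C1 library and 164 in the Control library (-0.21; plain ratio 0.849, interval 0.664 to 1.08), and its exchange factor Tsfm stood at -0.70. Eef1a1 and Eef1b2 have many processed copies in the genome, so their counts are uncertain.

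The other genes of tRNA supply had medians below 0 and few members past 2-fold. On a list of 13 further charging and proofreading genes, 11 passed the floor. None of these was past 2-fold on the log2(CPM + 1) scale (9.31% of all genes were higher and 9.42% lower), 1 was at least 1.5-fold higher (18.2% of all genes) and 2 were at least 1.5-fold lower (19.3% of all genes), with a median of -0.11. The higher one was Prorsd1, a relative of a bacterial proofreading domain, with 755 reads in the UNE-C1 library and 526 in the Control library (0.74). The lower ones were Dtd1, a D-aminoacyl-tRNA deacylase with 18 and 52 reads (-0.86, but 2.45-fold lower by the plain ratio, interval 1.41 to 4.45), and Qrsl1, a subunit of the enzyme that makes glutaminyl-tRNA in mitochondria, with 70 and 159 (-0.82). Aarsd1, an alanyl-tRNA editing protein, stood at -0.54. Dtd1 passed the floor only through the Control library. Of 22 measured genes of tRNA maturation, 3 were at least 2-fold lower, near the share of all genes (9.42%), and none was 2-fold higher (9.31% of all genes), with a median of -0.21. These were Trmt61a and Trmt1, of tRNA methylation, at -1.38 and -1.01, and Tsen15, of tRNA splicing, at -1.12; Trmt61a passed the floor only through the Control library. Nsun2, another tRNA methyltransferase, had 464 and 1093 reads (-0.98). Of 20 genes of RNA polymerase III transcription, which makes tRNA, none was past 2-fold, 1 was at least 1.5-fold higher (18.2% of all genes) and 5 were at least 1.5-fold lower (19.3% of all genes), with a median of -0.12. The higher one was Crcp, a polymerase subunit, at 0.60, and the lower ones were Gtf3a at -0.77, Polr3e at -0.69 and Gtf3c5, Polr3d and Polr3g at -0.62. Gtf3c5 passed the floor only through the Control library.

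**Figure D4:**
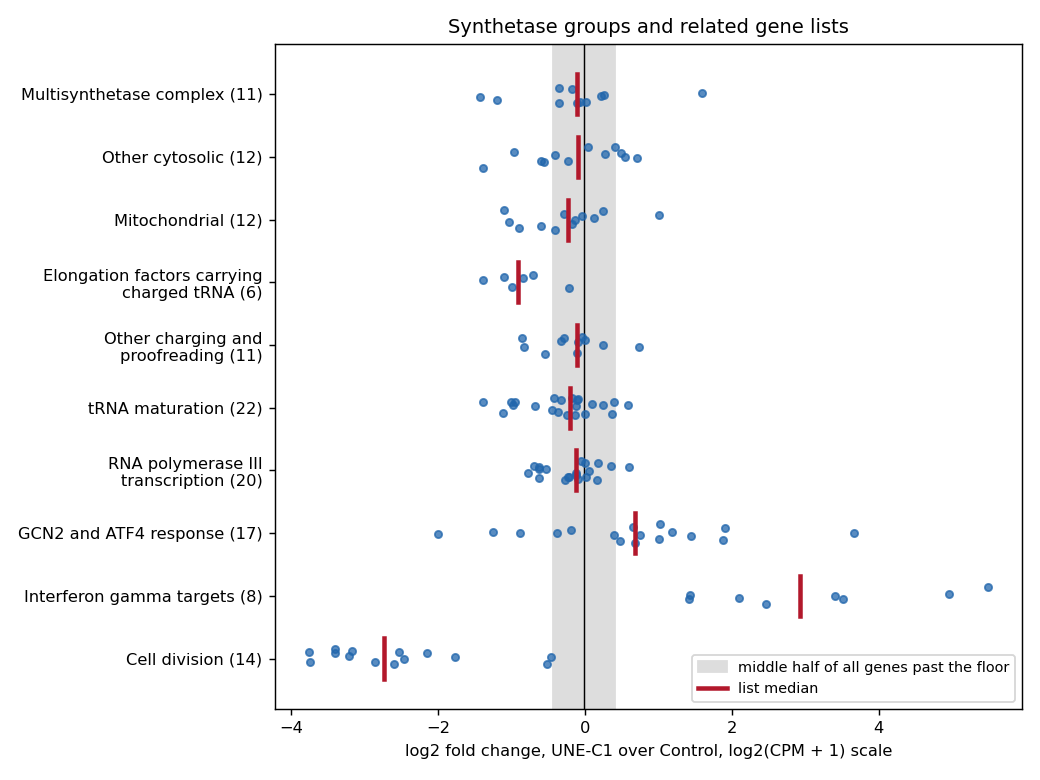
Log2 fold change, UNE-C1 over Control, of each gene past the floor (points, scattered vertically for legibility) in the synthetase groups and related lists, with the number of genes in brackets and the list median as a red bar. The grey band is the interquartile range of all genes past the floor, -0.44 to 0.41. The medians of the synthetase groups (-0.10, -0.09 and -0.23) lie inside it. Those of the elongation factors and of cell division lie to its left. Those of the GCN2 and ATF4 response (0.68) and of the interferon gamma targets (2.94) lie to its right.

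Marker genes of cell types and of cell division also differed between the libraries. Of the dendritic cell markers all 13 passed the floor, with summed levels of 15152 CPM in the UNE-C1 library and 15712 CPM in the Control library. Most of both sums came from H2-Aa, Cd74, H2-Eb1 and H2-Ab1, at -0.14, -0.003, -0.10 and -0.07, so the sums say little about the other markers. Of those, Cd86 stood at 2.60, Irf8 at 1.32, Flt3 at -0.83 and Itgax at -1.62. Of 14 cell division genes 12 were at least 2-fold lower (9.42% of all genes), of which 8 passed the floor only through the Control library, with summed levels of 130 and 562 CPM and the lowest values in Rrm2, Stmn1, Ccnb2 and Top2a, from -3.75 to -3.40. Of 13 neutrophil markers measured, 11 were at least 2-fold lower (9.42% of all genes), of which 3 passed only through the Control library. Only 1, Lcn2, was higher (9.31% of all genes). Their summed levels were 3764 and 8553 CPM, and Retnlg, Elane, Mmp9 and Mmp8 ran from -3.55 to -2.04. Of 11 monocyte and macrophage markers 5 were at least 2-fold lower (9.42% of all genes) and 3 higher (9.31% of all genes). Their summed levels were 5791 and 8195 CPM, and values ran from Mrc1 at -3.56 and Ccr2 at -2.39 to Ly6c2 at 1.74 and Fcgr1 at 3.55. Lymphoid markers summed to 2.75 CPM in the UNE-C1 library and 9.98 CPM in the Control library, and only Klrd1 passed the floor. The part of these differences in the lower values of Iars, Vars, Eef1e1 and the mitochondrial enzymes was not tested.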

How the data were processed

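The authors deposited 1 file per sample with whole-number read counts per gene symbol, not normalized; the column header is only a number, so the values themselves gave the unit. Per the labels' protocols a QuantSeq kit was used on 500 ng of RNA, and it reads the 3' end of messenger RNA. Bowtie2, edgeR and mm10 stand in the submitters' processing notes, without versions or roles. The UNE-C1 library held 15975821 reads and the Control library 14857198. Repeated symbols were summed; none of the 39 genes was repeated. TMM factors (edgeR 4.0.16, R 4.3.3) were 0.888 for UNE-C1 and 1.13 for Control. Differences used a pseudocount of 1 CPM; thresholds of 2-fold and 1.5-fold were set on this log2(CPM + 1) scale, and a "-fold" value of 1 gene is the ratio of CPM with an exact conditional binomial 95% interval (scipy 1.17.1), for counting error only, since PCR copies cannot be told from molecules. With 1 library per group no p-value was computed. The procedure was tested on simulated data. Gene positions and overlaps are from GENCODE M21 (GRCm38, also called mm10). The members, lists and thresholds were chosen with earlier results of these data known. Named were all 39 genes, with full values for those past 1.5-fold and for Cars, Cars2 and Wars, the overlapping genes, and the 4 largest differences of each other list with Atf4, Ddit3 and Eif2ak4. Lcn2, Ido1, Irf1, Atf3, Atf5, Shmt2, Asns, Tufm, Tsfm, Crcp, Polr3g, H2-Aa, Cd74, H2-Eb1 and H2-Ab1 were added after their values were seen. The promoter motifs were chosen with the values known, and a further motif, an interferon-response element, was searched and is not given. Because reads come from the 3' end, levels of different genes were not ranked. Alternatives were total counts, DESeq2 1.42.0 size factors, other pseudocounts and floors, and leaving out overlapping genes.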

Additional observations from a re-analysis of the deposited data

How the results depend on the processing

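No paired analysis was possible because each group is 1 library. With total counts the medians were -0.44 (multisynthetase complex) and -0.42 (other cytosolic), the summed ratios 0.906, 0.764 and 0.647 (complex, other cytosolic, mitochondrial), and 15 genes were at least 1.5-fold lower (33.5% of all genes) and 1 at least 2-fold higher (6.28%). With a pseudocount of 5, 1 gene was at least 1.5-fold higher (14.7% of all genes), 1 at least 2-fold higher (6.92%) and 0 lower by 2-fold (4.62%). With a floor of 200 reads, 1 gene was higher by 2-fold (10.1% of all genes), 2 (Vars and Iars, which passed this floor only in the Control library) were lower by 2-fold (7.57%) and 4 at least 1.5-fold lower (16.3%), and the other cytosolic median was 0.046, as it was without the genes that overlap one on the opposite strand, where the mitochondrial median was -0.74. Chosen after seeing the data, leaving out the genes that overlap any counted gene gave medians of 0.16 (other cytosolic) and -0.60 (mitochondrial), summed ratios of 0.906, 1.07 and 0.660, and 1 gene at least 2-fold higher. Without Mars 1 gene was at least 2-fold higher and the summed ratio of the complex was 0.909. The cause of these shifts was not tested, except that fewer genes enter under a higher floor or after leaving genes out. Of the 14 genes described in full, none changed sign under total counts or DESeq2 size factors. Most of them were chosen for a difference of at least 1.5-fold, which made a change of sign unlikely. A pseudocount cannot change a sign, because it is added to both levels. Total counts moved 5 of the 14 outside their counting interval, and a pseudocount of 5 moved 7. Depth limits the mitochondrial genes most, with a median of 62.5 reads in the UNE-C1 library.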
